A study of Mus musculus with 12 samples.

Results

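Serine and one-carbon metabolism was followed through 9 genes in activated CD4 T cells with and without the cap methyltransferase gene *Rnmt*. They were *Phgdh*, *Psat1* and *Psph* of serine synthesis, *Shmt1* and *Shmt2*, which turn serine into glycine, *Mthfd1*, *Mthfd2* and *Mthfd1l*, which interconvert folate-bound carbon, and *Tyms*, which spends it on thymidylate. The genes were given by their place in the pathway and matched by gene symbol through the Ensembl gene ID. They were chosen with earlier results of these data known, so the counts of called genes below are descriptive. All 9 were found among the 49585 genes in the count files, and all 9 passed the filter on low counts in total RNA and in ribosome protected fragments (RPF).

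Naïve CD4 T cells from the lymph nodes of female mice were activated for 20 h on plates coated with anti-CD3 (5 µg/ml) and anti-CD28 (1 µg/ml), and cycloheximide (0.1 mg/ml, 1 min) was added before lysis. Control cells were *Rnmt* fl/fl without the Cre transgene (CD4cre -) and *Rnmt* cKO cells were *Rnmt* fl/fl with it (CD4cre +), so that both genotypes carried the floxed allele and were stimulated in the same way. CD4-Cre acts in the thymus from the stage at which T cell precursors express both CD4 and CD8, and therefore the cells had developed without an intact *Rnmt* gene before they were activated. Total cytoplasmic RNA and RPF were sequenced from 3 control and 3 *Rnmt* cKO cultures, 12 libraries in all. Ages were not given in the sources used here, nor was it said whether each culture came from a separate mouse, so the p-values measure the spread between these cultures. Reads on genes numbered 15079703 to 22629563 per total RNA library and 4123271 to 10661356 per RPF library, and the shallowest was RPF *Rnmt* cKO replicate 3. Transcripts of B cell markers set some libraries apart, summing to 33.4 CPM (reads on a gene per 1000000 reads on genes) in total RNA of control replicate 3, to 86.5 and 109 CPM in *Rnmt* cKO replicates 1 and 2, and to at most 20.5 CPM in the other 3 cultures.

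Serine synthesis starts from a glycolytic intermediate, phosphoglycerate, which PHGDH oxidises, PSAT1 aminates and PSPH dephosphorylates. Serine hydroxymethyltransferases move a carbon from serine to tetrahydrofolate (THF), SHMT2 in mitochondria and SHMT1 in the cytosol and nucleus. In mitochondria MTHFD2 and MTHFD1L release that carbon as formate, in the cytosol MTHFD1 takes formate up again, and the carbon is used for purines, thymidylate and methionine; proliferating T cells are known to depend on this supply.

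RNMT methylates the guanosine cap of mRNA, and *Rnmt* was the gene deleted. *Rnmt* stood at 94.5, 94.0 and 91.5 CPM in the control total RNA libraries and at 28.6, 33.4 and 31.1 CPM in the *Rnmt* cKO libraries. In RPF it stood at 104, 85.9 and 98.2 CPM in control and at 10.8, 10.4 and 9.46 CPM in *Rnmt* cKO. All *Rnmt* cKO libraries lay far below the control libraries, and the log2 fold change was -1.62 ± 0.06 (SE, n = 3) in total RNA and -3.24 ± 0.10 in RPF (edgeR's quasi-likelihood test, Benjamini-Hochberg adjusted p = 5.8e-06 and 4.8e-06). The counts cover the whole gene, of which the study's allele loses exon 3, so reads from the remaining exons still count.

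The *Rnmt* cKO libraries held lower shares of reads on the serine synthesis genes and *Mthfd1l*, more *Shmt1* RNA and more *Shmt2* RPF. In total RNA 4 of the 9 genes were lower, *Phgdh*, *Psat1*, *Psph* and *Mthfd1l*, beside 28.0% of the 11519 genes tested, and 1, *Shmt1*, was higher, beside 26.3%. In RPF the same 4 genes were lower, beside 15.7% of the 11428 genes tested, and 1, *Shmt2*, was higher, beside 14.1%. These counts and all fold changes of single genes below come from edgeR's quasi-likelihood test on counts, with trimmed mean of M values (TMM) scaling and p-values adjusted over all genes tested (threshold 0.05). The median log2 fold change of the 9 genes was -0.04 in total RNA and -0.03 in RPF, beside -0.00 and 0.01 over all genes tested. Changed genes were common in these cells, and the 9 genes lay on both sides of 0. In bulk RNA, fewer cells of a type and less RNA per cell cannot be told apart. All levels are shares of the reads of a library. The deposited counts hold no measure of RNA per cell, which the loss of a cap methyltransferase can alter. The size and direction of a change per cell, those of the higher *Shmt1* and *Shmt2* included, were therefore not measured here. The study reports less mRNA per cell in activated *Rnmt* cKO cells, and states that sequencing then understates falls and overstates rises.

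**Figure D1:**
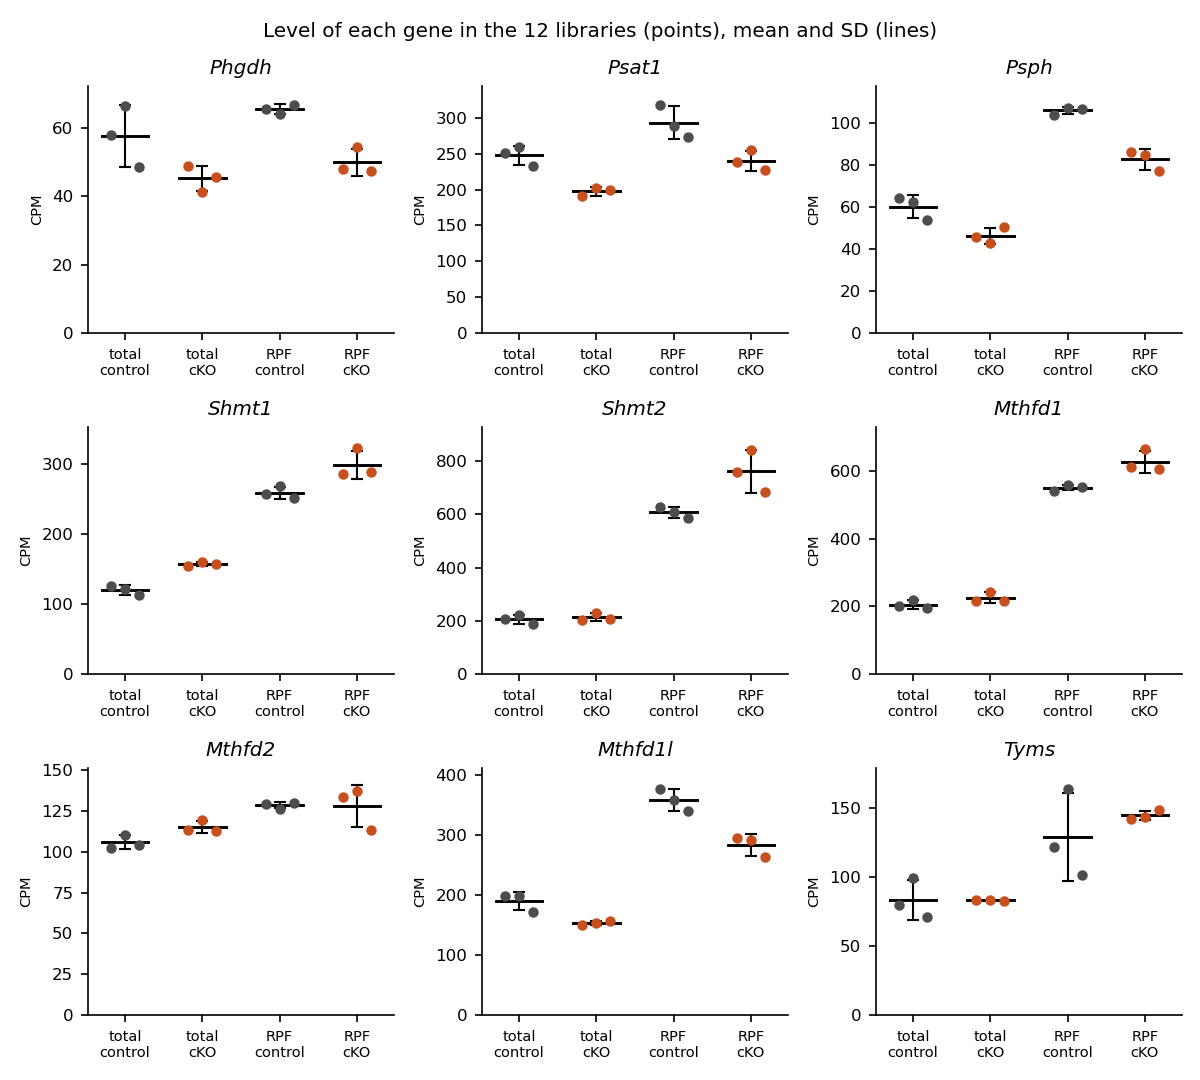
Level of each of the 9 genes in CPM (vertical axis, from 0) in the 12 libraries, with control libraries in grey and *Rnmt* cKO libraries in orange, and lines for the mean and SD of the 3 libraries in a group. *Psat1*, *Psph* and *Mthfd1l* lay lower in all *Rnmt* cKO libraries than in all control libraries in both assays, *Shmt1* lay higher in both, and in RPF *Tyms* spread most among the control libraries relative to its mean. The groups were apart for 5 of the 9 genes in total RNA and 7 in RPF, beside 60.9% and 45.9% of all genes tested.

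The 3 genes of serine synthesis were called lower in both assays, *Phgdh* in total RNA under 8 of the 13 alternatives tried. *Phgdh*, at chr3:98313170-98339990 (GRCm38, minus strand), encodes the enzyme that draws carbon from glycolysis into serine. Its total RNA stood at 58.0, 66.5 and 48.5 CPM in control and at 48.7, 41.2 and 45.7 CPM in *Rnmt* cKO. Control replicate 3 and *Rnmt* cKO replicate 1 overlapped, and the log2 fold change was -0.38 ± 0.12 (SE, n = 3, adjusted p = 0.027 by edgeR's quasi-likelihood test). That call was lost without control replicate 1 (adjusted p = 0.072), control replicate 2 (0.093), *Rnmt* cKO replicate 2 (0.079) or *Rnmt* cKO replicate 3 (0.054). In RPF *Phgdh* stood at 65.6, 64.0 and 66.8 CPM in control and at 47.9, 54.5 and 47.5 CPM in *Rnmt* cKO. Here the groups did not overlap, and the log2 fold change was -0.41 ± 0.08 (adjusted p = 0.0068), a level 1.33-fold lower.

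*Psat1*, at chr19:15904678-15947337 (minus strand), encodes phosphoserine aminotransferase and was the most abundant of the 3 per kilobase. Its total RNA stood at 252, 259 and 233 CPM in control and at 191, 202 and 200 CPM in *Rnmt* cKO, and its RPF at 319, 289 and 273 CPM in control and at 239, 255 and 227 CPM in *Rnmt* cKO. All *Rnmt* cKO libraries lay below all control libraries in both assays. The log2 fold change was -0.36 ± 0.05 in total RNA (adjusted p = 8.4e-04) and -0.31 ± 0.07 in RPF (adjusted p = 0.014, and 0.054 without *Rnmt* cKO replicate 1; edgeR's quasi-likelihood test).

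*Psph*, at chr5:129765558-129787449 (minus strand), encodes the phosphatase that completes serine. It stood at 64.4, 62.1 and 53.8 CPM in control total RNA and at 45.4, 42.8 and 50.4 CPM in *Rnmt* cKO total RNA. Its RPF was close among the controls, at 104, 107 and 107 CPM, and lower in *Rnmt* cKO, at 86.0, 84.8 and 76.9 CPM. Neither assay had overlapping groups, and the log2 fold change was -0.41 ± 0.09 in total RNA (adjusted p = 0.0054) and -0.38 ± 0.06 in RPF (adjusted p = 0.0037; edgeR's quasi-likelihood test). *Psph* overlaps *Cct6a* on the opposite strand; the counts used here were those of the strand of the gene. Summed over the 3 enzymes, RPF lay between 446 and 488 CPM in control and between 352 and 394 CPM in *Rnmt* cKO, and total RNA between 335 and 387 CPM and between 285 and 296 CPM.

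The pair of serine hydroxymethyltransferase genes was called in different assays, *Shmt1* in total RNA and *Shmt2* in RPF. *Shmt1*, at chr11:60788104-60811718 (minus strand), encodes the cytosolic enzyme, and its total RNA stood at 126, 121 and 113 CPM in control and at 154, 160 and 157 CPM in *Rnmt* cKO. The groups did not overlap and the log2 fold change was 0.36 ± 0.05 (adjusted p = 9.0e-04 by edgeR's quasi-likelihood test), a level 1.28-fold higher. In RPF *Shmt1* stood at 257, 269 and 252 CPM in control and at 286, 322 and 288 CPM in *Rnmt* cKO. All 3 *Rnmt* cKO libraries were again the higher ones, with a log2 fold change of 0.18 ± 0.07 that did not pass the threshold (adjusted p = 0.077).

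*Shmt2*, at chr10:127517123-127522444 (minus strand), encodes the mitochondrial enzyme, and its total RNA stood at 207, 221 and 188 CPM in control and at 203, 230 and 207 CPM in *Rnmt* cKO. The groups overlapped and the log2 fold change was 0.02 ± 0.07, with a 95% interval of -0.11 to 0.16. In RPF *Shmt2* stood at 627, 607 and 588 CPM in control and at 758, 843 and 682 CPM in *Rnmt* cKO. All *Rnmt* cKO libraries lay above all control libraries, and the log2 fold change was 0.30 ± 0.08 (adjusted p = 0.023 by edgeR's quasi-likelihood test), a level 1.23-fold higher. With 1 library left out, the log2 fold change of *Shmt2* in RPF stayed between 0.23 and 0.37, but its adjusted p rose to 0.056, 0.055 and 0.082 when control replicate 1, 2 or 3 was left out, and to 0.051 when *Rnmt* cKO replicate 2 was.

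RNMT acts at the cap, which sits on the base at which a transcript starts, and therefore the annotated starts of this pair are shown, 20 bases before the RefSeq start and 10 bases from it, 5′ to 3′ on the strand of the gene (GRCm38.p6, *Shmt2* at chr10:127522435-127522464 and *Shmt1* at chr11:60811256-60811285, both minus strand). Capitals mark the pyrimidine run that begins at the start, or the start base alone where it is a purine.
*Shmt2*: tgcgcatgcgcagggaacgcCTCTTTCact
*Shmt1*: accaggctgcgctggggagaGtttagtgga
The *Shmt2* start was a C followed without a break by further pyrimidines, 7 in all, and the *Shmt1* start was a G. In the GENCODE annotation, used here for the gene coordinates, the *Shmt2* gene begins at the same base. The *Shmt1* start shown (chr11:60811265) lies inside the GENCODE gene, which begins at 60811718 on the minus strand. Of the 32851 mouse starts in the RefSeq table, 1.9% opened with a pyrimidine run of at least 7, and 2.51% with a C in a run of at least 5.

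All 9 genes matched the RefSeq table, with 10 starts, since *Psat1* has 2. The first base was G at 5 starts, A at 2, C at 2 and T at 1, beside shares of 35.6%, 34.4%, 16.3% and 13.7% over all starts. The pyrimidine run was 2 bases long at *Mthfd1* and at *Mthfd1l*, and the other 7 starts had a purine there. At every gene but *Shmt2* the RefSeq starts differed from the outer end of the gene in GENCODE. Which starts these T cells used was not tested. The windows from 250 bases before to 50 after each start were searched on both strands for CACGTG, the E-box bound by MYC, TGATGNAA, a short form of the composite site bound by ATF4, and TTTCCCGC and TTTGGCGC, sites bound by E2F factors. The motifs were found in 7.15%, 3.97%, 1.07% and 0.514% of all starts. Among the 10 starts, 1 window held any of them, that of *Tyms*, with CACGTG in capitals 61 bases before the start, at chr5:30073669-30073698 (minus strand).
*Tyms*: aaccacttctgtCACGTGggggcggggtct

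Among the folate enzymes, *Mthfd1l* was lower and the other 2 were not called. *Mthfd1l*, at chr10:3973118-4167081 (plus strand), encodes the mitochondrial formyl-THF synthetase that releases formate. Its total RNA stood at 197, 198 and 172 CPM in control and at 150, 153 and 157 CPM in *Rnmt* cKO, and its RPF at 376, 358 and 340 CPM in control and at 294, 292 and 262 CPM in *Rnmt* cKO. The groups were apart in both assays. The log2 fold change was -0.33 ± 0.06 in total RNA (adjusted p = 0.0025) and -0.36 ± 0.06 in RPF (adjusted p = 0.0042; edgeR's quasi-likelihood test), and the gene was called lower in both assays under all 13 alternatives tried in each.

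*Mthfd1*, at chr12:76255298-76319803 (plus strand), encodes the cytosolic enzyme with 3 activities that takes up formate. It stood at 202, 219 and 195 CPM in control total RNA and at 215, 244 and 217 CPM in *Rnmt* cKO total RNA, and the groups overlapped (log2 fold change 0.10 ± 0.06). In RPF it stood at 542, 557 and 552 CPM in control and at 612, 665 and 605 CPM in *Rnmt* cKO. All *Rnmt* cKO RPF libraries were the higher ones, with a log2 fold change of 0.17 ± 0.06 that did not pass the threshold (adjusted p = 0.083 by edgeR's quasi-likelihood test).

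*Mthfd2*, at chr6:83305691-83325908 (minus strand), encodes the mitochondrial dehydrogenase and cyclohydrolase, an enzyme that activated T cells are known to induce. Its total RNA stood at 103, 111 and 104 CPM in control and at 114, 120 and 113 CPM in *Rnmt* cKO, and its RPF at 130, 126 and 130 CPM in control and at 134, 137 and 114 CPM in *Rnmt* cKO. The log2 fold change was 0.09 ± 0.05 in total RNA, where the groups were narrowly apart, and -0.03 ± 0.07 in RPF, where they overlapped. Neither passed the threshold (adjusted p = 0.20 and 0.82 by edgeR's quasi-likelihood test), and the 95% interval reached from -0.17 to 0.12 in RPF.

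*Tyms*, at chr5:30058202-30073617 (minus strand), encodes thymidylate synthase, the only enzyme that makes thymidylate anew. Its total RNA stood at 79.8, 99.3 and 70.6 CPM in control and at 83.5, 83.1 and 82.3 CPM in *Rnmt* cKO. In RPF it stood at 122, 164 and 101 CPM in control and at 142, 143 and 148 CPM in *Rnmt* cKO. The *Rnmt* cKO libraries lay within the range of the controls in both assays, and control replicate 2 was the highest in each. *Tyms* was not called (log2 fold change -0.04 ± 0.11 in total RNA and 0.14 ± 0.16 in RPF). Without control replicate 2 its RPF log2 fold change was 0.35 (adjusted p = 0.033 by edgeR's quasi-likelihood test), so that 1 library decided this value.

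**Figure D2:**
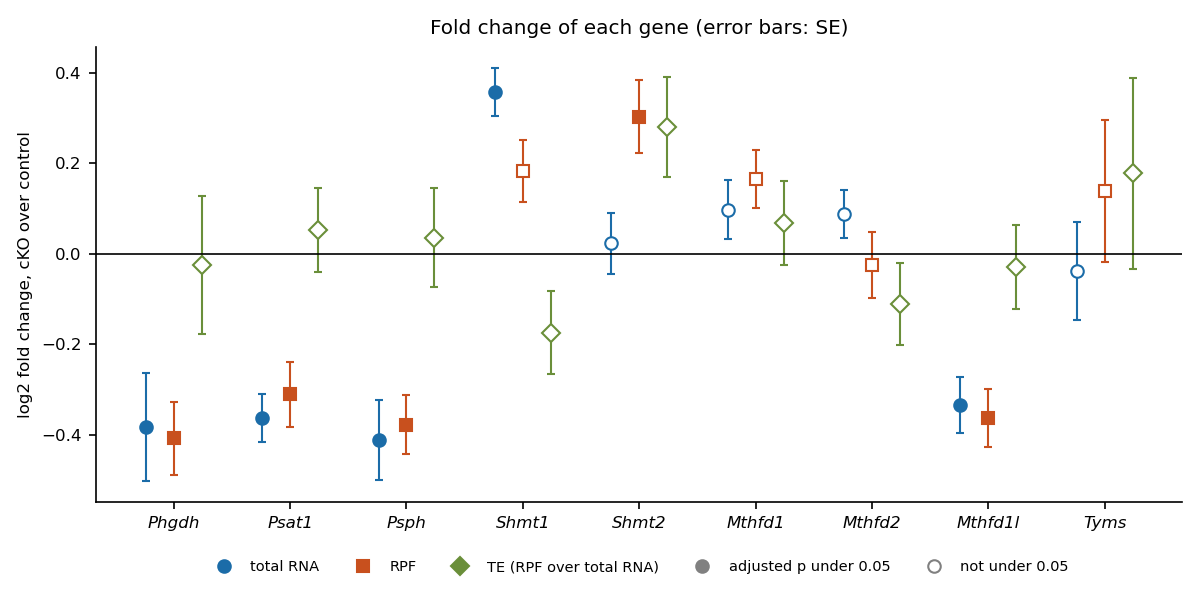
Log2 fold change of *Rnmt* cKO over control (vertical axis) for each of the 9 genes in total RNA (circles), RPF (squares) and TE (diamonds), with SE from 3 cultures a group and filled symbols for an adjusted p under 0.05. *Phgdh*, *Psat1*, *Psph* and *Mthfd1l* lay between -0.41 and -0.31 in both assays with a TE change near 0, and *Shmt2* was called higher in RPF (0.30) and not in total RNA (0.02).

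Translation efficiency (TE) is the RPF of a gene relative to its total RNA. None of the 9 genes had a changed TE, beside 6.57% of the 10668 genes tested that were lower and 3.24% that were higher (interaction of genotype and assay in edgeR's quasi-likelihood test, over all 12 libraries). At an unadjusted p under 0.05 there was 1, *Shmt2*, and DESeq2 called 0. The edgeR fit had no term for the culture shared by a total RNA and an RPF library. With that term none of the 9 genes was called, while 777 of the 10668 genes were lower and 426 higher. In the fit without it, the median log2 change in TE was 0.04 over the 9 genes and 0.04 over all genes tested. For *Shmt2*, RPF CPM over total RNA CPM was 3.03, 2.75 and 3.13 in the control cultures and 3.73, 3.67 and 3.29 in the *Rnmt* cKO cultures. All *Rnmt* cKO cultures lay above all control cultures, and the log2 change was 0.28 ± 0.11 (unadjusted p = 0.025, adjusted p = 0.13), within 0.23 to 0.31 over the alternatives tried. For *Shmt1* the same ratio was 2.04, 2.22 and 2.24 in control and 1.85, 2.01 and 1.83 in *Rnmt* cKO. Here the *Rnmt* cKO cultures lay below the control cultures, with a log2 change of -0.17 ± 0.09 (adjusted p = 0.26).

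The 4 genes that were lower in both assays had TE changes of -0.02 ± 0.15 (*Phgdh*), 0.05 ± 0.09 (*Psat1*), 0.04 ± 0.11 (*Psph*) and -0.03 ± 0.09 (*Mthfd1l*) on the log2 scale. Their 95% intervals reached -0.32 to 0.27, -0.13 to 0.23, -0.18 to 0.25 and -0.21 to 0.15. *Mthfd1*, *Mthfd2* and *Tyms* had TE changes of 0.07 ± 0.09, -0.11 ± 0.09 and 0.18 ± 0.21. A call in RPF and none in total RNA, as for *Shmt2*, does not show that the 2 assays differed, and the test of that difference is the TE test given above.

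**Figure D3:**
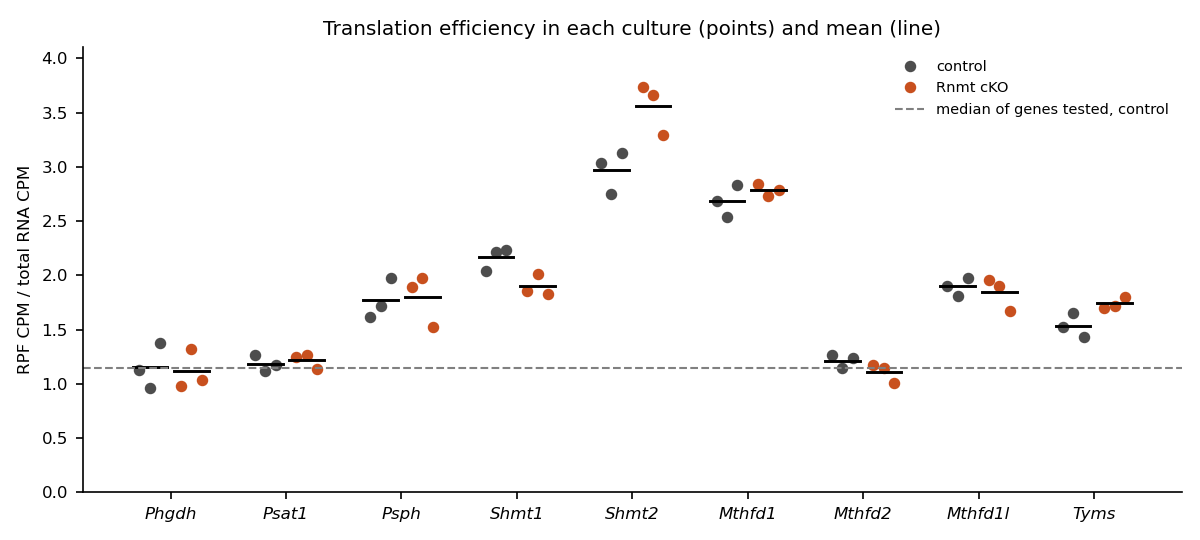
RPF CPM over total RNA CPM (vertical axis, from 0) for each of the 9 genes in the 3 control (grey) and 3 *Rnmt* cKO (orange) cultures, with lines for means. The cultures of the 2 genotypes were apart for *Shmt2*, *Shmt1* and *Tyms* and overlapped for the other 6 genes, beside 29.4% of all genes tested that were apart, and the ratio depends on how much of a transcript is coding, so it is read within a gene.

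Each mitochondrial enzyme was also set against its cytosolic counterpart as a ratio of read counts within a library, which does not depend on library scaling. An exact permutation test of 3 against 3 cannot give a two-sided p under 0.1, so no ratio could pass 0.05. *Shmt2* over *Shmt1* in total RNA was 1.64, 1.82 and 1.67 in control and 1.32, 1.43 and 1.32 in *Rnmt* cKO, lower in all 3 (log2 difference -0.34, exact permutation p = 0.1, adjusted over 6 tests 0.15). In RPF it was 2.44, 2.26 and 2.33 in control and 2.66, 2.61 and 2.37 in *Rnmt* cKO, and the groups overlapped (log2 difference 0.12, exact permutation p = 0.2, adjusted 0.24). The ratio thus leaned to the cytosolic enzyme in *Rnmt* cKO total RNA, while in RPF the difference had the other sign.

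*Mthfd1l* over *Mthfd1*, the mitochondrial against the cytosolic formyl-THF synthetase, was 0.977, 0.903 and 0.882 in control total RNA and 0.700, 0.628 and 0.724 in *Rnmt* cKO total RNA. In RPF it was 0.694, 0.643 and 0.616 in control and 0.481, 0.439 and 0.434 in *Rnmt* cKO. All *Rnmt* cKO libraries had the lower ratio in both assays, with log2 differences of -0.43 and -0.53 (exact permutation p = 0.1 each, adjusted 0.15). *Mthfd2* over *Mthfd1* did not differ beyond the spread in total RNA (log2 difference -0.01, exact permutation p = 0.9) and was lower in all *Rnmt* cKO libraries in RPF, at 0.218, 0.207 and 0.188 beside 0.239, 0.227 and 0.235 in control (log2 difference -0.20, exact permutation p = 0.1, adjusted 0.15). Summed over *Shmt1*, *Mthfd1* and *Tyms*, RPF lay between 905 and 990 CPM in control and between 1039 and 1130 CPM in *Rnmt* cKO. None of these 3 genes was called in RPF. The sum of the 3 mitochondrial enzymes overlapped, at 1057 to 1132 CPM and 1058 to 1271 CPM. It joins *Shmt2*, called higher in RPF, with *Mthfd1l*, called lower. The sums were not tested.

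**Figure D4:**
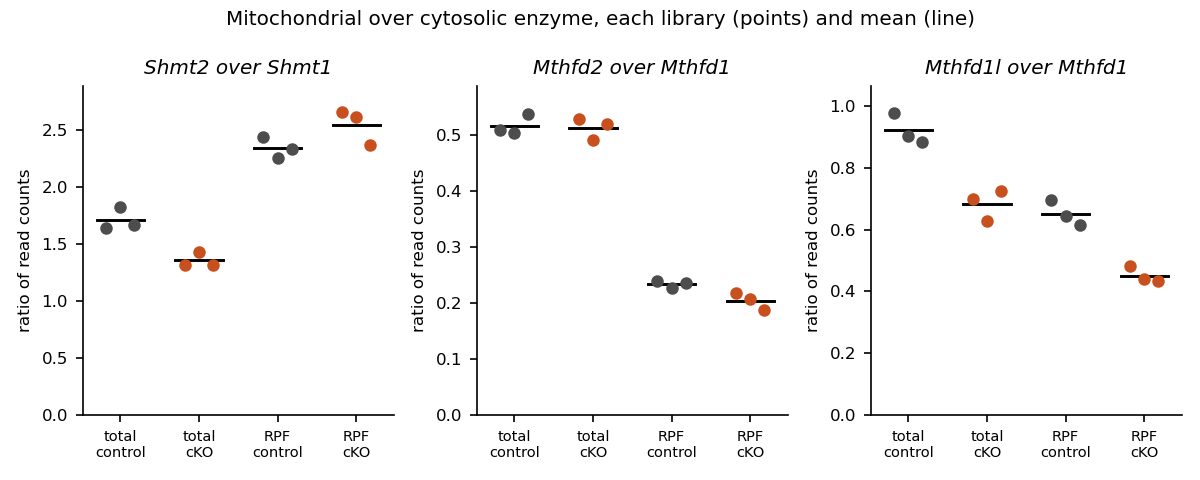
Read count of the mitochondrial enzyme over that of the cytosolic enzyme (vertical axes, from 0) in each control (grey) and *Rnmt* cKO (orange) library of total RNA and RPF, with lines for means. *Mthfd1l* over *Mthfd1* was lower in *Rnmt* cKO in both assays, and *Shmt2* over *Shmt1* was lower in all *Rnmt* cKO libraries of total RNA and overlapped in RPF.

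To compare the genes with each other, levels were divided by exon length for total RNA and by coding length for RPF. In control total RNA *Shmt2* (89.0 ± 7.1 CPM per kilobase, SD, n = 3) and *Psat1* (84.4 ± 4.5) led, and their libraries overlapped. *Mthfd1* (63.4 ± 3.9), *Mthfd2* (50.8 ± 2.0), *Mthfd1l* (44.3 ± 3.5), *Shmt1* (41.9 ± 2.3), *Psph* (34.7 ± 3.2), *Phgdh* (30.5 ± 4.7) and *Tyms* (26.3 ± 4.6) followed. Of these neighbours, *Mthfd1l* and *Shmt1*, *Psph* and *Phgdh*, and *Phgdh* and *Tyms* had overlapping libraries. In *Rnmt* cKO total RNA *Shmt2* (92.6 ± 6.3) stood apart at the top, *Psat1* (67.2 ± 2.0) overlapped with *Mthfd1* (69.4 ± 5.0), *Shmt1* (55.0 ± 1.1) overlapped with *Mthfd2* (55.3 ± 1.8), and *Phgdh* (23.9 ± 2.0) was the lowest.

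In RPF *Shmt2* led by far, at 401 ± 13 CPM per kilobase in control and 503 ± 53 in *Rnmt* cKO, or 24.9% and 30.1% of the summed RPF level of the 9 genes. *Psat1* was next in control (253 ± 20). In *Rnmt* cKO it stood at 207 ± 12, and its libraries overlapped with those of *Mthfd1* (224 ± 12) and *Shmt1* (208 ± 14). *Phgdh*, at 40.9 ± 0.9 in control and 31.3 ± 2.4 in *Rnmt* cKO, was the lowest of the 9 in RPF in both genotypes, with no overlap with its neighbour.

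Across the 12 libraries, centred within each assay, the gene whose log2 CPM ran most like that of a member was named among 6591 genes with a mean log2 CPM of at least 4 in both assays. It was *Msto1* for *Phgdh* (Pearson r = 0.95), *Dars* for *Psat1* (0.97), *Coa3* for *Psph* (0.99), *Stip1* for *Shmt1* (0.98), *Cpox* for *Shmt2* (0.95), *Cul7* for *Mthfd1* (0.95), *Dstn* for *Mthfd2* (0.88), *Cdca7* for *Mthfd1l* (0.99) and *Kif20a* for *Tyms* (0.90). Among pairs of the 9 genes themselves, *Psat1* and *Mthfd1l* were most alike (r = 0.97), followed by *Psph* and *Mthfd1l* (0.95), and *Psph* and *Shmt1* were least alike (-0.76). These values describe 12 libraries that share 6 cultures and the difference between genotypes, and they were not tested.

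Beyond the 9 genes, lists of further steps of the pathway held called genes in either direction. Over all genes tested, 28.0% were lower and 26.3% higher in total RNA, 15.7% and 14.1% in RPF, and 6.57% and 3.24% in TE, and the counts of the lists were read against those shares. Of 14 other folate cycle genes 9 were tested in total RNA, of which 2 were lower and 2 higher, with a median log2 fold change of -0.11 beside -0.00 over all genes tested. *Ggh*, which trims folate polyglutamates, was lower (-0.64 ± 0.11) and *Fpgs*, which builds them, was higher (0.38 ± 0.11), as was *Mthfd2l* (0.62 ± 0.16), a paralog of *Mthfd2* at 4.42 CPM in control. In RPF 1 of 9 was lower, *Mthfsl* (-0.92 ± 0.29, at 4.63 CPM in control), a paralog of *Mthfs* between which reads may be divided, and none was higher by edgeR's quasi-likelihood test. With DESeq2 0 were lower and 1 was higher in RPF, and without TMM scaling 1 was lower and 1 higher. The call of *Mthfsl* was lost in all 6 fits with a library left out and with DESeq2. In total RNA the second lower gene, *Mtfmt* (-0.25), named here after its values were seen, was called in none of the 6 and not with DESeq2, the exact test or without TMM scaling. The call of *Ggh* in total RNA was kept in all 6, *Mthfd2l* lost it without control replicate 1, and *Fpgs* without control replicate 1 or 2.

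Of 6 folate transport genes 3 were tested in total RNA and all were called, 2 lower and 1 higher (median -0.41). *Izumo1r*, listed here for its older name, folate receptor 4, although its product is known not to bind folate, fell by 1.32 ± 0.12 on the log2 scale in total RNA and by 1.09 ± 0.08 in RPF, and *Slc19a1*, the reduced folate carrier, fell by 0.41 ± 0.08 in total RNA. *Slc25a32*, the mitochondrial folate carrier, rose by 0.23 ± 0.07 in total RNA and 0.43 ± 0.11 in RPF. In RPF 1 of 4 was lower and 1 higher (median -0.68, and -0.26 over the 3 genes with at least 10 counts in every library, without *Slc46a1*). *Izumo1r* is part of these counts and medians, and it was the lower gene in RPF. There *Slc19a1* did not pass the threshold (-0.26 ± 0.09, adjusted p = 0.0502 by edgeR's quasi-likelihood test). With 1 library left out, *Slc25a32* was called in 4 of 6 fits in total RNA (not without control replicate 2 or 3) and in 2 of 6 in RPF (without control replicate 3 or *Rnmt* cKO replicate 3). Its call in total RNA was also lost with the replicate number as a block.

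Of 12 serine and glycine transport genes 9 were tested, with 4 lower and 1 higher in total RNA (median -0.19; the fourth lower gene, *Slc25a38*, at -0.19 and named after its values were seen, was called in none of the 6 fits with a library left out) and 2 lower and none higher in RPF (median -0.02). *Sfxn1*, the mitochondrial serine carrier, stood between 164 and 183 CPM in control total RNA and between 102 and 112 CPM in *Rnmt* cKO (log2 fold change -0.76 ± 0.06), and it was lower in RPF too (-0.57 ± 0.07). Its relative *Sfxn3* was lower in RPF (-0.75 ± 0.11) and in TE (-0.58 ± 0.15, adjusted p = 0.032 by the interaction test in edgeR). The call in TE was kept in 1 of the 6 fits with a library left out, that without *Rnmt* cKO replicate 3, and was lost with the replicate number as a block. *Slc6a9*, a glycine transporter, was lower in total RNA (-0.95 ± 0.23, at 2.33 CPM in control), and *Slc38a2*, a carrier of small neutral amino acids, was higher (0.30 ± 0.08), a call lost without control replicate 1. Among 11 genes listed under serine use 6 were tested in total RNA and 2 were lower there and in RPF. They were *Sptlc1* of sphingolipid synthesis (-0.94 ± 0.07 and -0.94 ± 0.08) and *Gcat* of threonine breakdown (-0.65 ± 0.12 and -0.69 ± 0.11). *Gcat* was in this list although its enzyme forms glycine and does not use serine. The medians of the list were -0.16 and -0.06. Over the alternatives run they ranged from -0.22 to 0.05 in total RNA and from -0.22 to 0.06 in RPF. The count of higher serine use genes ranged from 0 to 2 and from 0 to 1. Of 4 glycine cleavage genes *Dld* and *Gcsh* were tested, and 0 were called by edgeR or DESeq2 in total RNA (median -0.00, 1 at an unadjusted p under 0.05) or in RPF (median -0.06, 0 at an unadjusted p under 0.05). In total RNA 1 was called lower without control replicate 3 and 1 higher without *Rnmt* cKO replicate 3. Without the filter on low counts 1 of 4 was lower there.

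The pair of purine synthesis genes whose enzymes use formyl-THF had different patterns. *Atic* stood between 247 and 279 CPM in control total RNA and between 310 and 341 CPM in *Rnmt* cKO, and in RPF between 537 and 608 CPM in control and between 451 and 523 CPM in *Rnmt* cKO. It was thus higher in total RNA (log2 fold change 0.26 ± 0.06) and lower in RPF (-0.26 ± 0.07), and its TE was lower (-0.53 ± 0.09, adjusted p = 0.0034 by the interaction test in edgeR). *Gart* was lower in RPF (-0.37 ± 0.07), and its lower total RNA (-0.16 ± 0.05) was called in none of the 6 fits with a library left out. *Atic* in RPF was called in 2 of those 6 fits, without control replicate 2 or *Rnmt* cKO replicate 2, and was not called without TMM scaling or by the edgeR exact test. Its TE and its higher total RNA were called under every alternative run. Of the 8 thymidylate supply genes, all tested, 2 were lower and 1 higher in total RNA (median -0.16), 0 were called in RPF (median 0.07) by edgeR and by DESeq2, with 3 at an unadjusted p under 0.05, and 1 was lower in TE. Over the alternatives run, the RPF counts of these genes ranged from 0 to 1 in each direction, and their RPF median from -0.02 to 0.10. *Rrm2*, a ribonucleotide reductase subunit, was higher in total RNA (0.59 ± 0.14) and lower in TE (-0.85 ± 0.19), while *Rrm2b* (-0.67 ± 0.12) and *Tk1* (-0.41 ± 0.14) were lower in total RNA. The TE call of *Rrm2* was lost without control replicate 1, and with 1 library left out *Tk1* was called in 2 of 6 fits, without control replicate 3 or *Rnmt* cKO replicate 1.

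Of 6 methionine cycle genes 5 were tested, with 2 lower and 1 higher in total RNA (median -0.07) and 1 higher in RPF (median -0.13). *Ahcy*, which breaks down the product of methylation reactions, RNMT's own included, was lower in total RNA (-1.01 ± 0.10, at 31.7 CPM in control), and *Mtrr*, which keeps methionine synthase active, was higher in total RNA (0.38 ± 0.07) and RPF (0.36 ± 0.08). *Mat2b*, the regulatory subunit of S-adenosylmethionine synthase, was lower in total RNA (-0.20 ± 0.06), which with 1 library left out was called in 2 of 6 fits, without control replicate 2 or *Rnmt* cKO replicate 3, and was not called without TMM scaling or by DESeq2.

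All 6 genes of transcription factors known to act on the pathway were tested, with 2 lower and 1 higher in total RNA (median -0.14) and 2 higher in RPF (median -0.07). *Myc* rose by 1.57 ± 0.24 on the log2 scale in total RNA and by 1.08 ± 0.10 in RPF, from between 500 and 617 CPM to between 1029 and 1308 CPM. *Atf4*, whose product is known to induce *Phgdh*, *Psat1*, *Shmt2* and *Mthfd2*, rose by 0.61 ± 0.12 in RPF, from between 131 and 184 CPM to between 232 and 279 CPM, and by 0.51 ± 0.14 in TE (adjusted p = 0.039 by the interaction test in edgeR). The call in TE was kept in 1 of the 6 fits with a library left out, that without control replicate 3, and was lost without TMM scaling. Of the 4 targets named, *Phgdh* and *Psat1* were lower in RPF, *Shmt2* was higher and *Mthfd2* was not called. *Ddit3* (-0.80 ± 0.11) and *Nfe2l2* (-0.33 ± 0.08) were lower in total RNA.

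**Figure D5:**
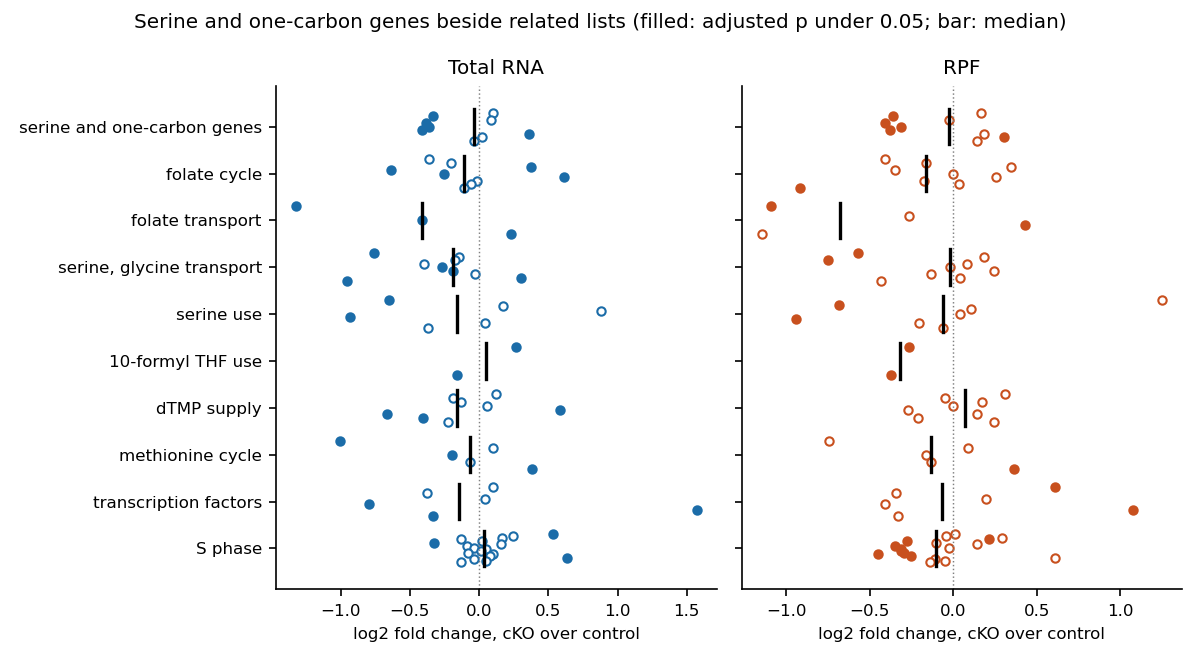
Log2 fold change of *Rnmt* cKO over control (horizontal axes) of the 9 genes and of the tested genes of 9 related lists in total RNA (left) and RPF (right), with 1 point a gene, filled for an adjusted p under 0.05, and a bar for the median of a list. Most lists held genes on both sides of 0, and *Myc* lay farthest to the right among the called genes of these lists in both assays.

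*Tyms* and several genes of these lists are known to be transcribed most in S phase, and 18 genes of DNA replication and proliferation were read beside them. In total RNA 1 was lower and 2 were higher, *Mki67* (0.64) and *Ccna2* (0.53), with a median of 0.03. In RPF 7 were lower, beside 15.7% of all genes tested, and 1 was higher, beside 14.1%, with a median of -0.10, and 3 were lower in TE, beside 6.57%, with *Mcm6* (-0.56) and *Mcm3* (-0.36) changed most. Without TMM scaling 4 were lower and 2 higher in RPF. With 1 library left out, the 7 became 3 without *Rnmt* cKO replicate 1, 4 without control replicate 1 or 2 or *Rnmt* cKO replicate 2 or 3, and 7 without control replicate 3. The higher gene in RPF, *Cdc45* (0.21), was called in 1 of these 6 fits, that without *Rnmt* cKO replicate 3. It was not called by the edgeR exact test, without the filter on low counts or with counts of both strands. The 3 in TE became 2 without *Rnmt* cKO replicate 2 or 3 and 1 without any of the other 4 cultures, and *Mcm6* was called in all 6 of these fits in RPF and in TE. In TE 2 were lower without TMM scaling, 1 without the filter on low counts or with the replicate block, and 4 with the culture as a block; the call of *Mcm4*, the third gene, named for this reason, was lost in each of these. The 2 that were higher in total RNA became 1 without control replicate 1 and 5 without control replicate 2. Their summed RPF lay between 9711 and 10334 CPM in control and between 8166 and 9064 CPM in *Rnmt* cKO. *Tyms* had a log2 fold change of 0.14 ± 0.16 in RPF. The part of cell cycle stage in the values of the 9 genes was not tested.

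The libraries held T cell RNA, with *Cd3e* at 122 CPM and *Cd4* at 325 CPM in control total RNA. Of the 8 T cell markers 4 were lower in *Rnmt* cKO in total RNA and in RPF, *Cd3d*, *Cd3g*, *Cd5* and *Lck*, and of 6 activation genes 4 were higher in both assays, *Cd44*, *Cd69*, *Il2ra* and *Nr4a1*. B cell markers, 6 genes led by *Ms4a1* in total RNA, summed to 9.50, 6.29 and 33.4 CPM in control total RNA and to 86.5, 109 and 20.5 CPM in *Rnmt* cKO total RNA, so that control replicate 3 and *Rnmt* cKO replicates 1 and 2 stood above the other 3. In RPF they summed to 11.8, 8.69 and 42.1 CPM in control and to 133, 143 and 21.8 CPM in *Rnmt* cKO, in the same cultures. With 1 of these 3 cultures left out, calls were lost for *Phgdh* in total RNA (without *Rnmt* cKO replicate 2), *Psat1* in RPF (without *Rnmt* cKO replicate 1) and *Shmt2* in RPF (without control replicate 3 or *Rnmt* cKO replicate 2), and the other 7 calls of the 9 genes were kept. The 2 CD8 markers summed to 21.2, 21.4 and 40.5 CPM in control total RNA and to 25.8, 22.0 and 10.1 CPM in *Rnmt* cKO, and they overlapped. The 7 myeloid markers summed to at most 1.13 CPM in total RNA, with *Csf1r* and *Cd14* at 0 in control. The 5 NK cell markers summed to at most 3.24 CPM in control total RNA and to 20.7, 38.6 and 21.7 CPM in *Rnmt* cKO. Most of each sum was *Eomes*, which stood between 2.41 and 3.14 CPM in control and between 19.7 and 36.8 CPM in *Rnmt* cKO. Of the 5 only *Eomes* passed the filter, and it was higher in *Rnmt* cKO (log2 fold change 3.13 in total RNA). Without the filter 3 of the 5 were called higher in total RNA, and summed over 3 libraries *Ncr1* had 4 reads in control and 28 in *Rnmt* cKO, and *Klrb1c* 1 and 20. Of 3 regulatory T cell markers *Ikzf2* and *Nrp1* were higher in total RNA and *Foxp3* stood at 0.788 CPM in control total RNA and 0.544 CPM in *Rnmt* cKO. In RPF *Ikzf2* and *Nrp1* were higher too, *Ikzf2* in 1 of 6 fits with a library left out. *Foxp3* stood at 5.95 CPM in control RPF and 5.33 CPM in *Rnmt* cKO RPF and was not called (log2 fold change -0.19 ± 0.23). The study had purified the cells with a naïve CD4 T cell kit before activation. The part of these cells or states in the values of the 9 genes was not tested.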

How the data were processed

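Genotype and assay came from the labels. The authors trimmed adapters with Cutadapt, removed ribosomal RNA and tRNA reads with Bowtie, aligned to mm10 with STAR 2.5.2b and deposited, for each library, raw counts of reads aligned to 1 place, by gene, without normalization. A deposited table of 10126 genes held signal values (counts over an effective library size); the counts of the reverse strand gave these values exactly for every gene and were used. Its columns of log2 fold changes and p-values for total RNA, RPF and TE were not used.

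Counts were tested with edgeR 4.0.16 (R 4.3.3), glmQLFit and glmQLFTest, among genes with a CPM above 1 in at least 3 libraries of an assay. TE was the interaction of genotype and assay, in place of RiboDiff, which the study used. The scripts were tested on simulated data. CPM was taken over the reads on genes, coordinates and lengths from GENCODE vM21, and promoters from RefSeq. Figures used matplotlib 3.10.9.

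The 9 genes and the gene lists were chosen with earlier results of these data known. List genes past the threshold with the largest changes, at most 4 a list, were named. Alternatives were plain library sizes, DESeq2 1.42.0, the edgeR exact test, other filters, both strands, leaving out each replicate, and blocks.

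Total RNA and RPF libraries of the same number and genotype deviated from their group means together (Pearson r over genes from 0.11 to 0.37 in the 6 cultures), so they were read as the same culture. Counts without molecular identifiers are not independent molecules.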

Additional observations from a re-analysis of the deposited data

Results flagged for a closer look

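Reads on the strand opposite to a gene enter no comparison above, and 2 of the 9 genes had at least 10 such reads (median in *Rnmt* cKO) in each assay. At 1 of the 2 in total RNA, *Shmt1*, and 1 of the 2 in RPF, *Psph*, they were higher in every *Rnmt* cKO library than in every control library, beside 31.6% of the 2987 genes with as many such reads in total RNA and 22.9% of the 1823 in RPF. The same held at fewer reads for *Tyms* in RPF and *Mthfd1* in total RNA, with means of 0.453 and 0.0693 CPM in *Rnmt* cKO. At *Psph*, which overlaps *Cct6a* on that strand, opposite-strand RPF averaged 42.1 CPM in *Rnmt* cKO (37.0, 46.6 and 42.7) and 32.6 CPM in control (28.5, 35.8 and 33.5). At *Shmt1*, which overlaps *Smcr8*, opposite-strand total RNA averaged 4.08 CPM in *Rnmt* cKO (3.38, 5.64 and 3.23) and 2.66 CPM in control (2.05, 3.12 and 2.83). The differences were not tested.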

How the results depend on the processing

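The counts of called genes stayed at 1 higher in total RNA and 0 in TE under every alternative run, at 3 or 4 lower in total RNA and RPF, and at 1 higher in RPF, except that without 1 replicate the last ranged from 0 to 1. It was 0 without control replicate 1, control replicate 3 or *Rnmt* cKO replicate 2, and without control replicate 2 the gene called was *Tyms* in place of *Shmt2*. With the replicate number as a block *Phgdh* in total RNA was -0.38 (adjusted p = 0.060, edgeR's quasi-likelihood test) and no other call of the 9 genes changed. Control and *Rnmt* cKO libraries of the same number did not deviate together (r = -0.29, -0.23 and -0.53 in total RNA and 0.14, -0.05 and -0.07 in RPF). This check cannot settle whether equal numbers were paired, since in total RNA the cultures with more B cell marker RNA deviated together. These were control replicate 3 and *Rnmt* cKO replicates 1 and 2 (r = 0.34 with each). Whether equal numbers were prepared together is not known. A block for the culture changed no TE call of the 9 genes.

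Without 1 replicate, log2 fold changes near 0 changed sign: in total RNA *Tyms* (-0.14 to 0.094) and *Shmt2* (-0.028 to 0.065), in RPF *Tyms* (-0.014 to 0.35) and *Mthfd2* (-0.073 to 0.043), and in TE *Phgdh* (-0.18 to 0.091), *Psat1* (-0.0033 to 0.093), *Psph* (-0.061 to 0.12) and *Mthfd1l* (-0.081 to 0.011), as did the log2 ratio of *Mthfd2* over *Mthfd1* in total RNA (-0.031 to 0.022). None of these was called otherwise, except *Tyms* in RPF without control replicate 2.

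Depth was lowest in RPF *Rnmt* cKO replicate 3, where *Phgdh* had 196 reads. With 3 cultures a group, a change had to be well above its SE to be called, and 0.18 ± 0.07 for *Shmt1* in RPF was not. TE compares RPF over coding sequence with fragments of whole transcripts. Reads aligned to several places were not counted, which leaves reads shared with the pseudogenes *Phgdh-ps1* and *Tyms-ps* out of *Phgdh* and *Tyms*.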
